A study of Mus musculus with 12 samples.

Results

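Chromosome 8 was examined for gains and losses in cells grown from mouse malignant peripheral nerve sheath tumours (MPNST), by array comparative genomic hybridisation. The probes were chosen by position alone: all those that the array files place on chromosome 8 of mouse build mm9, apart from 14 probes in a stretch of 1.2 Mb that begins at 9.4 Mb, which were not used. This gave 2139 of 42390 probes, spaced at a median of 18.6 kb from position 3151837 to 131699795. On each array, tumour DNA labelled with Cy5 competed with reference DNA labelled with Cy3, and every value below is log2 of tumour over reference signal, set to 0 at the median of that array's autosomal probes. All tumours came from mice carrying P0-GGFβ3, a transgene in which the promoter of the myelin gene P0 drives GGFβ3, an isoform of neuregulin-1, in Schwann cells. The reference DNA came from wild-type, non-neoplastic Schwann cells, with C57BL/6J given as their strain.

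There were 12 arrays of 11 tumours. By their labels, 4 tumours (B76, B86, B91 and B96) arose on C57BL/6J and 7 (231Trig, A18, A202, A292, A382, A390 and A394) on a mixed background of C57BL/6J and SJL/J. A culture of A382 was measured at passage 8 and again at passage 9; the mean of both arrays stands for this tumour. Passages in the sample names run from 5 (A394) to 13 (B76), and 231Trig has none. The growth notes describe cultures started with forskolin and NRG1β, split and then kept without both, with an upper passage limit that lies below the numbers of A18, B91, B76 and the later A382 array. Wild-type Schwann cells were kept in both factors throughout. The age and sex of the mice and the share of tumour cells in each culture were not used here.

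Copy number arrays report the amount of DNA at each probe relative to the rest of the genome, so a chromosome present in an extra copy in every cell of a diploid culture would be expected at a log2 ratio of 0.58, and one that had lost a copy at -1. Values nearer to 0 are seen when only some cells carry the change, when the cells carry extra copies of every chromosome, or when the array compresses ratios. MPNSTs are aggressive tumours of the Schwann cell lineage and are known for many chromosome-wide gains and losses. Mouse chromosome 8 carries Nrg1 itself, the growth factor gene from which GGFβ3 derives, along with the receptors Fgfr1 and Insr and the helicase gene Wrn. It also holds a cluster of cadherin genes, the tumour suppressor candidates Dlc1, Tusc3 and Wwox, and families of related defensin, carboxylesterase and metallothionein genes.

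The probes on which the results turn are given here as whole probes, 5′ to 3′ as the array files list them, in lower case with no base picked out. The files do not give their strand. The first set marks the edges of the stretch with the largest steps on the chromosome, in tumour B76: its first probe, its last probe, and the first probe beyond it.
A_53_P170284, in Aadat, chr8:62997306-62997364: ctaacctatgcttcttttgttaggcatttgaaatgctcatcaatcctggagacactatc
A_53_P132419, with no gene name, chr8:66474263-66474322: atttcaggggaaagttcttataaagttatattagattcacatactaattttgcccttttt
A_53_P139927, in Tll1, chr8:66629607-66629666: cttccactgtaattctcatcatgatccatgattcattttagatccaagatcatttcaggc
The second set holds both Nrg1 probes, because the transgene of these mice encodes a product of this gene.
A_53_P131196, in Nrg1, chr8:32944646-32944705: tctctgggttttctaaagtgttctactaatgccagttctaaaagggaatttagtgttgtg
A_53_P172724, in Nrg1, chr8:32990682-32990741: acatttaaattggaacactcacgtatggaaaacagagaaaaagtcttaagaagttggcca

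The third set holds the probe with the highest and the probe with the lowest mean ratio on the chromosome.
A_53_P118435, in Nip7, chr8:109581591-109581650: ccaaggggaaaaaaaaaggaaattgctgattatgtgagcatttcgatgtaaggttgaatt
A_53_P120195, with no gene name, chr8:81267440-81267499: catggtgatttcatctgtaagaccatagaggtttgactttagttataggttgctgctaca
The last set holds 8 probes whose ratios were sorted into 3 levels across the tumours, described further on.
A_53_P123244, with no gene name, chr8:19376328-19376387: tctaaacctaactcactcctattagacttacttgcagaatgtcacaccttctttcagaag
A_53_P169731, in Mfhas1, chr8:36702395-36702454: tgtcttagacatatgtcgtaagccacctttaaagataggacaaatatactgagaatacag
A_53_P129449, with no gene name, chr8:37062312-37062371: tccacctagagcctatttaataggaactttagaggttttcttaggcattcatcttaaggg
A_53_P127659, in Triml1, chr8:44221009-44221068: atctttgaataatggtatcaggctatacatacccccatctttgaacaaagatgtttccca
A_53_P125757, in Zfp930, chr8:71733442-71733501: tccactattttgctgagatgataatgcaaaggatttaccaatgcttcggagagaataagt
A_53_P141809, in Slc10a7, chr8:81234913-81234972: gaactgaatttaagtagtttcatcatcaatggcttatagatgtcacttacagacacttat
A_53_P111333, with no gene name, chr8:84705245-84705304: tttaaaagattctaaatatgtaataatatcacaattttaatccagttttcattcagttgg
A_53_P108911, in Rnf150, chr8:85488912-85488971: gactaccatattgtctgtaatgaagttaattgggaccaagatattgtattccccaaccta

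Array quality on this chromosome differed mainly by slide. The lowest share of its probes that exceeded background clearly in both channels was 99.5% on any array, and 2117 were so on all 12. Noise, taken from differences of adjacent probes, was 0.174 to 0.244 per tumour, highest on slide 1 (A18, 231Trig, B86 and A202), which was read on another scanner than slides 2 and 3 and on which 0.779% to 1.79% of chromosome 8 spots were set to missing. On the other slides at most 0.0917% were. Precision is limited by the small number of arrays, and p-values measure only the spread between these tumours, since the labels name them apart but say nothing else of their origin.

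The first question was how much of chromosome 8 each tumour held. A202 had the least: its chromosome median was -0.42, a linear ratio of 0.747, and the lowest of its 19 autosomes. B76 had the most, with a median of 0.27 and a linear ratio of 1.21, and it was the only tumour of the 11 above 0.2. A390 was at 0.02. The other 8 tumours lay close together below 0, from -0.20 in A382 to -0.10 in B86. In the mixed tumours the lowest, median and highest values were -0.42 (A202), -0.13 (A292) and 0.02 (A390). In the C57BL/6J tumours the values were -0.10 in B86, -0.15 in B91, -0.12 in B96 and 0.27 in B76.

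**Figure D1:**
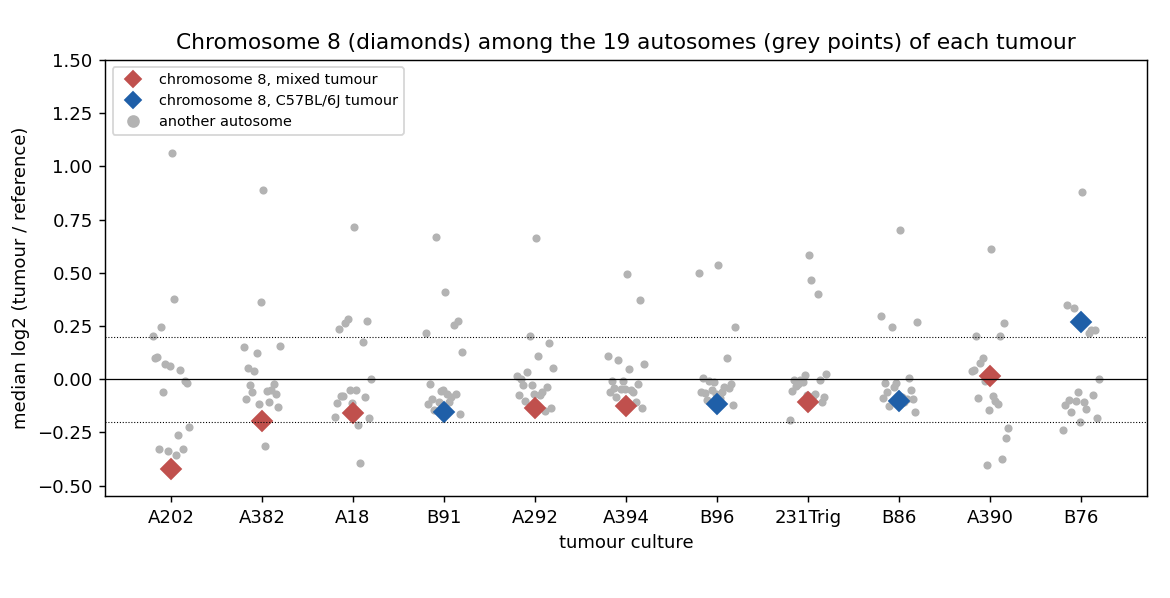
Median log2 ratio of tumour over reference for chromosome 8 (diamonds, red for mixed and blue for C57BL/6J tumours) and for each other autosome (grey points) in each of 11 tumours, ordered by chromosome 8. Dotted lines mark 0.2 and -0.2, the size at which a segment was called; only A202 at -0.42 and B76 at 0.27 have a chromosome 8 median beyond them.

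The share of chromosome 8 probes below 0 followed the same order. It was 97.0% in A202 and 11.8% in B76, with 47.1% in A390 and 67.3% to 84.8% in the other 8 tumours. On the other autosomes of the same tumours it was 47.4% to 52.1%. Chromosome 8 was the second lowest autosome in A382, B91, B96 and A394 and the third lowest in 231Trig and A292.

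Over the 11 tumours the mean of the chromosome 8 medians was -0.11 ± 0.16 (SD, n = 11), below 0 in 9 of 11 tumours. It did not pass the exact two-sided sign-flip permutation test, with p = 0.0527 and an adjusted p of 0.0974 over the 19 autosomes, of which 36.8% passed. The opposite values of A202 and B76 set most of that spread. Without both, the other 9 tumours had a mean of -0.12 ± 0.06 (SD, n = 9), below 0 in 8 of 9, and the exact sign-flip adjusted p was 0.01855. Without B76 alone the mean was -0.15 and the exact sign-flip adjusted p 0.0106. Over all other settings that were tried, the adjusted p stayed above 0.05. It reached 1 in the 4 C57BL/6J tumours alone, where the sign-flip test has too few sign changes to pass at any size.

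The small negative values shared by most tumours stood beside a chromosome 8 signal above the autosomal median in the reference channel. With probe GC content adjusted for, the Cy3 signal of chromosome 8 lay 0.13 ± 0.01 log2 (SD, n = 12 arrays) above the array's autosomal median, the third highest of the 19 autosomes. It ran from 0.11 to 0.15 over the arrays. The other autosomes apart from chromosome 11 were at 0.03 ± 0.07 in this channel (SD, n = 17 autosomes), from -0.09 to 0.16, so chromosome 8 lay inside their range. The tumour channel on chromosome 8 was -0.02 ± 0.16 (SD, n = 12 arrays), at -0.29 in A202, -0.14 in both A382 arrays, 0.12 in A390 and 0.36 in B76. In the other 7 tumours it ran from -0.07 in B91 to 0.01 in B86. Every array carried the reference in the same dye, so a shift of the reference or dye on this chromosome cannot be told apart from a loss shared by the tumours. Gene ratios against the reference, given below, would include any such shift. Values set against the median of the tumour's own chromosome would not.

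The next question was whether the change covered the whole chromosome or part of it. Profiles were divided by penalised least squares into segments of at least 5 probes, and a segment was called at a mean of at least 0.2 or at most -0.2. At the penalty used, 40 noise variances per break, chromosome 8 formed 1 unbroken segment from its first probe to its last in 9 of 11 tumours. A202 was called lost over its whole length, with a segment mean of -0.44. A382 was called lost by a small margin, at -0.20, and the other unbroken tumours lay between -0.18 in A18 and 0.01 in A390 and were not called. All of chromosome 8 was called gained in B76. Counting the 11 tumours together, 18.1% of chromosome 8 probe values lay in lost segments and 9.13% in gained segments, against 6.97% and 19.3% over all autosomes. Chromosome 8 had 5 breaks in all. The other autosomes ran from 0 on chromosome 18 and 1 on chromosome 13 to 54 on chromosome 4 and 56 on chromosome 11. At a lower penalty of 20, chromosome 8 had 28 breaks, and only A18, 231Trig and B86, all on slide 1, stayed unbroken.

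**Figure D2:**
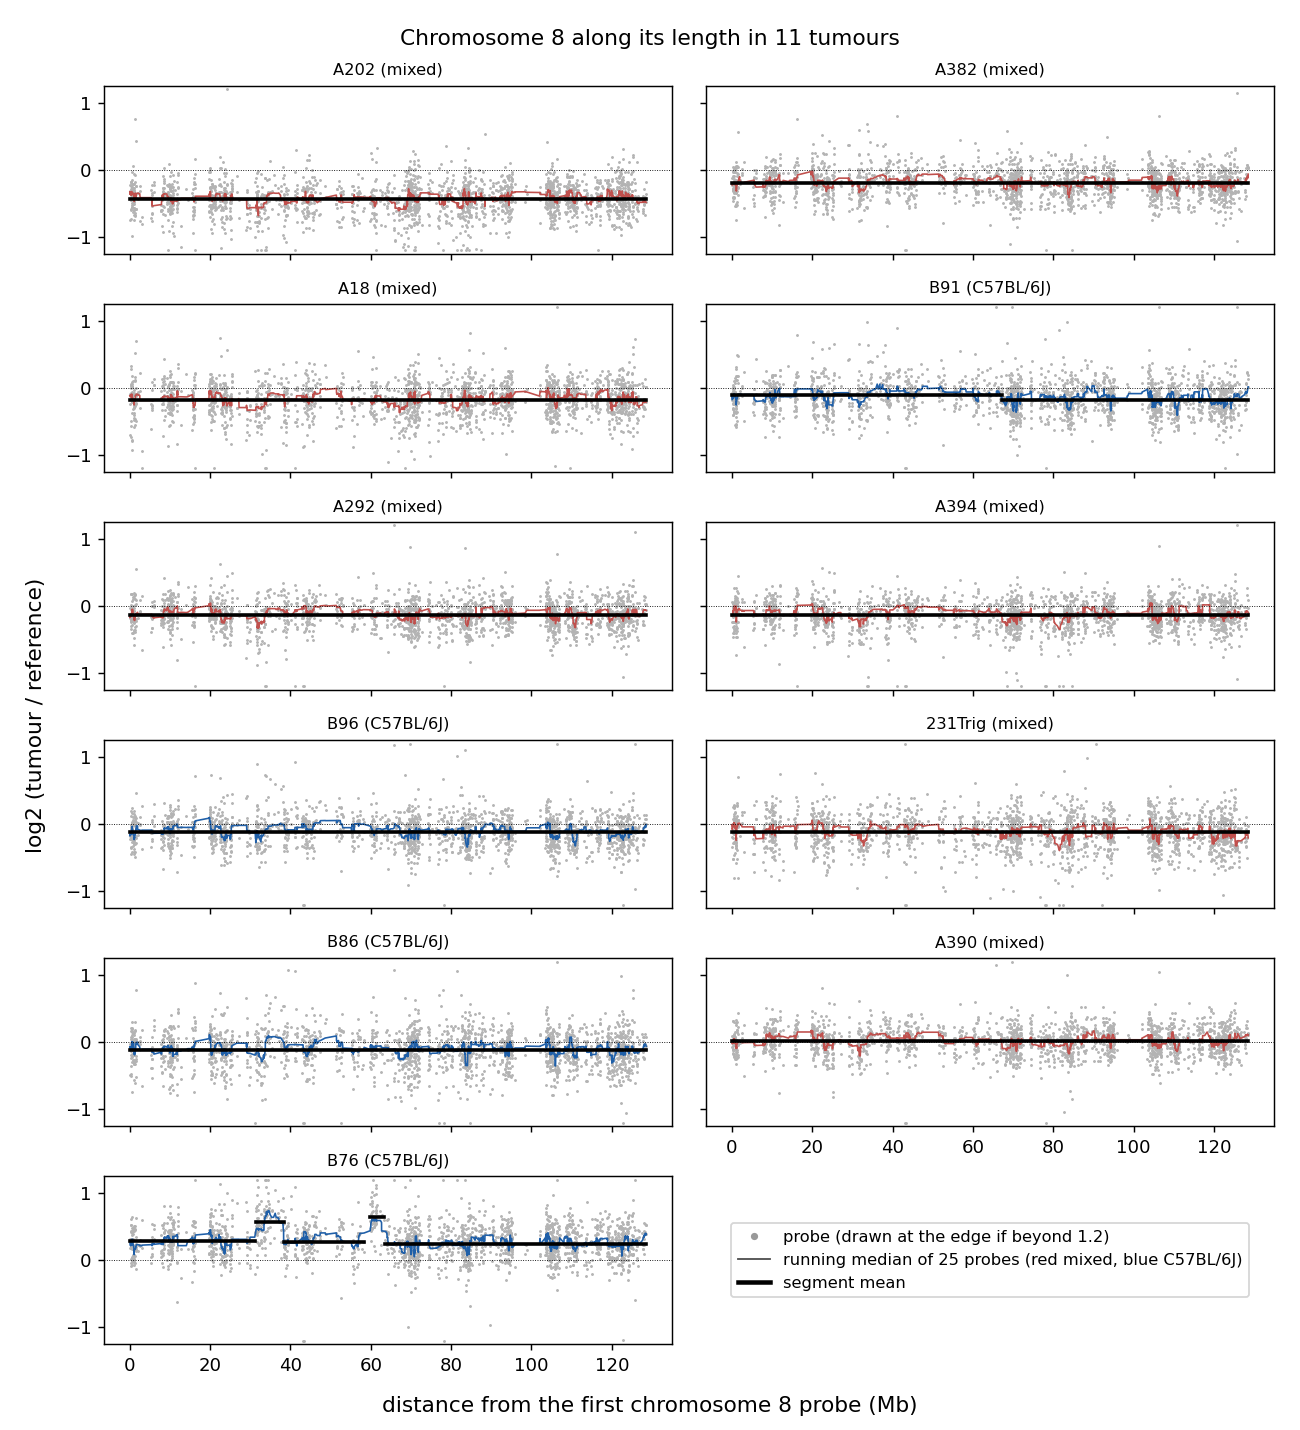
Log2 ratio of tumour over reference along chromosome 8 in each tumour, against the distance from the first probe in Mb (grey points are probes, the coloured line is the running median of 25 probes, and black bars are segment means). The profile forms 1 segment in 9 tumours at a penalty of 40 noise variances, steps by -0.06 in B91, and has 2 raised stretches at 0.58 and 0.65 in B76.

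Medians of 10 Mb windows gave the same picture. Over the 13 windows with at least 50 probes, A202 ran from -0.51 to -0.37, so that each of its windows was below every window of the other 10 tumours. B86 ran from -0.13 to -0.06 and A390 from -0.03 to 0.08. The widest range was that of B76, from 0.21 to 0.47, and its 2 highest windows were those at 30 to 40 Mb (0.47) and 60 to 70 Mb (0.47). In the other 10 tumours the furthest that such a window lay from its tumour's chromosome median was 0.12, in B96.

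A slight difference between the parts before and beyond 66 Mb remained in nearly all tumours. The median of the probes beyond 66 Mb was lower than that of the probes before it in 10 of 11 tumours, by -0.07 in B76, -0.06 in B91 and -0.05 in B96 at most, and A202 was the exception at 0.03. The mean difference, distal minus proximal, was -0.03 ± 0.03 (SD, n = 11; exact two-sided sign-flip p = 0.00488). The proximal mean was -0.09 and the distal mean -0.12. It stayed negative with p of 0.000977 to 0.0156 by the same exact test in each of 22 alternatives, among them the adjustment for GC content and a run without the raised stretches of B76. The 10 Mb windows did not fall steadily. Their median over the tumours was -0.07 at 40 to 50 Mb, -0.17 at 70 to 80 Mb and -0.09 at 90 to 100 Mb. The reference on every array is the same, and its part in the distal minus proximal difference was not tested. The break found in B91 lies within Psd3, a gene for an exchange factor of small GTPases, between 70357641 and 70430197, and steps only from -0.11 to -0.18.

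B76 carried the only steps of at least 0.2 on chromosome 8, and they bounded 2 raised stretches. The first stretch spanned 6.95 Mb, from 34491404 to 41437036, with a mean of 0.58 over 94 probes. It rose from 0.28 on its centromeric side and fell to 0.27 beyond. The second spanned 3.48 Mb, from 62997306 to 66474322, with a mean of 0.65 over 47 probes, between 0.27 and 0.25 on either side. By the rule for focal changes (under 5 Mb and at least 0.3 from the tumour's chromosome median) only the second counted as focal. The standard errors of both means over their probes were 0.02 and 0.03, which cover the spread of probes on 1 array and not that between cultures.

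As the segments placed the 4 edges, 1 fell inside a gene and the other 3 between named genes. The first stretch was placed to begin within Wrn, the RecQ helicase gene that is mutated in Werner syndrome in humans. Its 3 probes read -0.21, 0.29 and 0.59 in B76 in order along the chromosome, and the step of 0.29 in segment means was placed between the last pair. The next probes, in Purg, read 0.39 and 0.78. Noise in B76 was 0.19, so this edge may lie some probes away and outside Wrn. It ended between Msr1, a scavenger receptor gene, and Zdhhc2, a palmitoyltransferase gene, with a gap of 10.1 kb between the probes on either side. The second stretch began between Galntl6 and Aadat, an aminotransferase gene, in a gap of 1522 kb without probes, so this edge is the least well placed. It ended between Spock3, a proteoglycan gene, and Tll1, a tolloid-like protease gene, with a gap of 155 kb and the largest step of the chromosome, -0.40. The probes printed above for B76 are those at the edges of this second stretch.

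**Figure D3:**
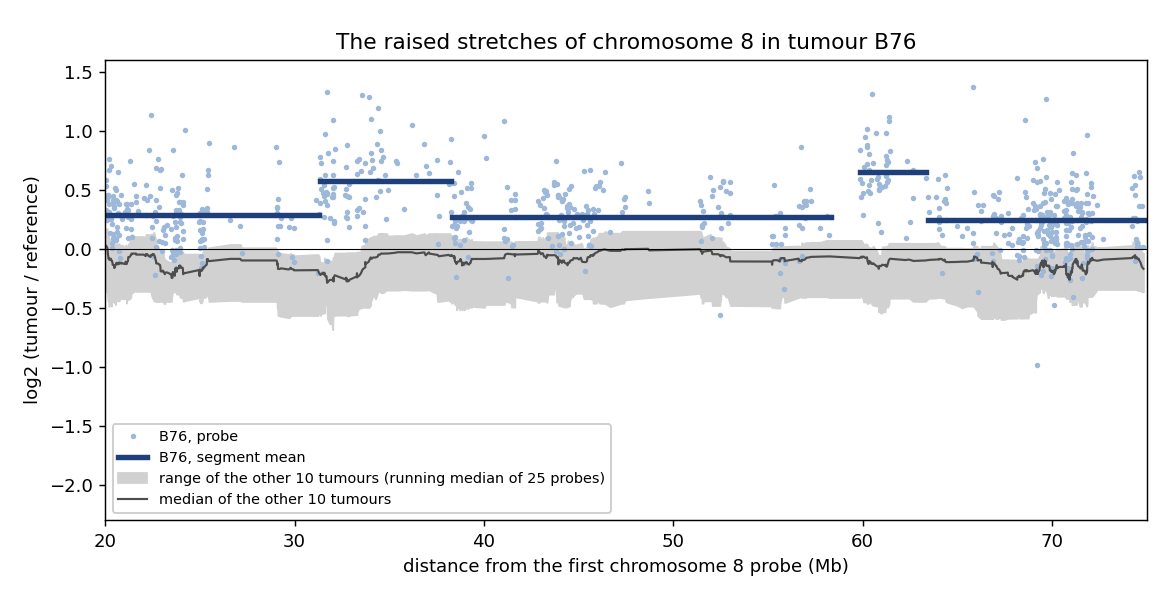
Log2 ratio of tumour over reference in B76 (points are probes, thick bars are segment means) against the distance from the first chromosome 8 probe in Mb, with the range (grey band) and median (line) of the running medians of the other 10 tumours. The raised stretches at 0.58 and 0.65 in B76 have no counterpart in the other tumours.

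The first stretch held 25 genes with a symbol and the second 10. Within the first, Dlc1 stood at 0.74 in B76 against -0.53 (A202) to 0.04 (A390) in the other 10 tumours. Tusc3, a gene of the protein glycosylation machinery, stood at 0.67 against -0.59 to 0.12. Dusp4, a phosphatase gene of the MAP kinase pathway, stood at 0.60 against -0.64 to 0.07. For each of these genes B76 lay above all other tumours, as follows from a stretch defined by its own high values. B76 was also the highest tumour for 276 of the 305 chromosome 8 genes called lower below.

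In the second stretch, the 5 genes with a symbol nearest its start were all above 0.5. Aadat stood at 0.71 in B76, Mfap3l at 0.56, Clcn3, a chloride-proton exchanger gene, at 0.68, Nek1, a kinase gene of the cilium and DNA damage response, at 0.57, and Sh3rf1, a scaffold gene of JNK signalling, at 0.85. In the other 10 tumours Clcn3 ran from -0.34 (A202) to -0.01 (A390). Palld, a gene of the actin cytoskeleton with 7 probes, stood at 0.56 in B76 and between -0.51 and 0.01 elsewhere. Not all genes inside were as high: in B76 the genes with a symbol ran from 0.23 (Saraf) to 1.09 (Mboat4) in the first stretch and from 0.41 (Cbr4) to 1.1 (Anxa10) in the second. The nearest named genes outside were Zdhhc2 at 0.38, Galntl6 at 0.226 and Tll1 at 0.37, all below the range of the second stretch. Zdhhc2 and Tll1 lay within the range of the first stretch, and Galntl6 just below its lowest gene, Saraf at 0.228.

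Neither stretch was raised in any other tumour. Relative to each tumour's own chromosome 8 median, the first stretch was at 0.28 in B76 and from -0.05 to 0.05 in the other 10 tumours, and the second was at 0.34 against -0.06 to 0.03. In B76, 81 of the 94 probes and 43 of the 47 probes lay above that tumour's chromosome median. There is 1 array of B76, so these steps have no replicate and no test. Both raised stretches were also found at penalties of 20 and 80 noise variances. The lower penalty divided the first stretch further and moved its end to between 41398210 and 41429138, so that edge is not fixed to 1 probe interval.

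The culture of A382 could be compared between passages, on different slides. Its chromosome 8 median was -0.19 at passage 8 and -0.20 at passage 9. The arrays differed per probe by a median of 0.05, and neither showed a break. The call of a loss held at passage 8, with a segment mean of -0.21, and not at passage 9, where the mean was -0.20 and just short of the limit.

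Genes were tested with limma as the mean ratio over the 11 tumours against 0, each gene being the mean of its probes, and passed at a Benjamini-Hochberg adjusted p under 0.05 over all 20002 autosomal genes with a mean of at least 0.2 in size. Of 1074 chromosome 8 genes, 305 were lower (28.4%) and 25 were higher (2.33%), against 15.5% lower and 18% higher over all autosomes. The median of all chromosome 8 gene means was -0.13, and that over all autosomes was -0.01. A202 was the lowest tumour for 223 of the 305 lower genes, and B76 was the highest for 276 and above 0 for 214.

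A second fit set each gene against the median of its own chromosome in the same tumour, which removes a level shared by the whole chromosome. It passed 103 chromosome 8 genes as higher and 112 as lower, against 9.95% and 13% over all autosomes, or 9.59% and 10.4% of the chromosome 8 genes. Of the 305 genes below the reference, 193 were not called against their own chromosome. Of the 1074 genes, 469 rest on 1 probe. With gene values taken from the running median of 5 neighbouring probes, 1 of the 25 higher and 161 of the 305 lower genes were still called, so most calls of higher genes rest on isolated probes.

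Among neuregulin and growth factor signalling genes, no member was higher than the reference. Of 19 members measured, 8 passed as lower (42.1%, beside 28.4% of all chromosome 8 genes) and 11 did not pass, and their median was -0.20, beside -0.13 for all chromosome 8 genes. Against their own chromosome 2 passed as lower (10.5%, near the 10.4% of all chromosome 8 genes). Nrg1 itself was at -0.22 in B86, -0.36 in B91, -0.22 in B96 and 0.09 in B76, and in the mixed tumours its lowest, median and highest values were -0.56 (A202), -0.29 (A382) and -0.20 (231Trig). Only B76 was above 0. Its mean of -0.26 ± 0.15 (SD, n = 11; limma adjusted p = 0.000304) passed as lower, and its difference from the chromosome, -0.15 (limma adjusted p = 9.13e-06), was short of the size needed.

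The Nrg1 probes printed above read -0.19 ± 0.20 and -0.33 ± 0.13 on average (SD, n = 11). The first was above 0 only in B76, at 0.26, and the second was below 0 in every tumour, at -0.07 in B76. The labels do not say which Nrg1 sequence the transgene holds, and whether these probes would detect it was not tested. Both lie before the raised stretch of B76.

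Among the genes downstream of receptors, Map2k7, a kinase gene that activates JNK, had the lowest mean of this list. Its values were -0.44 in B86, -0.51 in B91, -0.41 in B96 and 0.03 in B76, and in the mixed tumours -0.66 (A202), -0.51 (A18) and -0.25 (A390) as lowest, median and highest. The mean was -0.44 ± 0.19 (SD, n = 11; limma adjusted p = 6.92e-06), and -0.33 against its chromosome (limma adjusted p = 3.69e-08). Gab1, an adaptor gene that links receptor tyrosine kinases to PI3K, was at -0.40 ± 0.20 (SD, n = 11) and -0.29 against its chromosome, and both passed by limma. With the running median of neighbouring probes, Map2k7 was still called in both fits. Gab1 was then called against the reference only, at -0.28, and was at -0.17 against its chromosome. Smad1, a transducer of BMP signals, was at -0.29 ± 0.23, Rasa3, a GTPase-activating gene for Ras, at -0.26 ± 0.17, and the receptor gene Fgfr1 at -0.21 ± 0.14 (SD, n = 11 each), and these passed against the reference only. The insulin receptor gene Insr, at -0.14 ± 0.18 (SD, n = 11), did not pass.

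**Figure D4:**
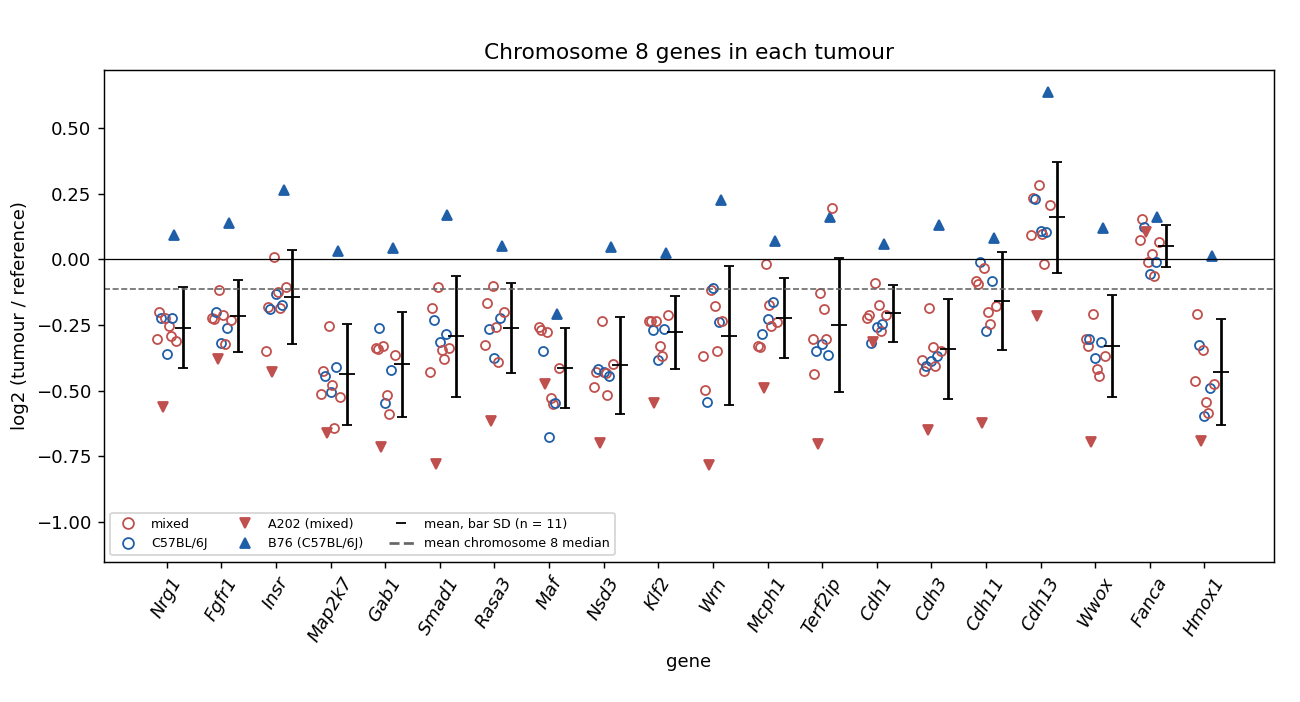
Log2 ratio of tumour over reference for 20 chromosome 8 genes named from the lists, in each of 11 tumours (circles red for mixed and blue for C57BL/6J, filled triangles for A202 pointing down and B76 pointing up), with the mean and SD over tumours in black and the mean chromosome 8 median as a dashed line. B76 is the highest tumour for most genes and A202 the lowest, as in Nrg1 at 0.09 and -0.56.

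Cell cycle and transcription genes had 9 of 21 members lower (42.9%, beside 28.4%), none higher and 12 that did not pass, with a median of -0.18. Against their own chromosome 2 passed as lower (9.52%, near the 10.4% of all chromosome 8 genes). Maf, a transcription factor of the AP-1 superfamily, was at -0.41 ± 0.15 and Nsd3, a histone methyltransferase gene, at -0.40 ± 0.18 (SD, n = 11 each). Both also passed against their chromosome, by -0.30 and -0.29. With the running median of neighbouring probes, Maf was at -0.18 and Nsd3 at -0.19, and at -0.07 and -0.08 against their chromosome. Neither was then called in either fit. Ankrd11, a chromatin regulator gene measured by 10 probes, was at -0.29 ± 0.15 and Klf2 at -0.28 ± 0.14 (SD, n = 11 each), and these passed against the reference only. Ing2 and Sall1 passed as higher than their chromosome, by 0.22 and 0.21, and stood at 0.11 and 0.09 against the reference, where they did not pass.

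DNA repair and telomere genes had 3 of 12 members lower (25%, near the 28.4% of the chromosome), none higher and 9 that did not pass, and none was called against its chromosome. Those 3 were Wrn at -0.29 ± 0.27, Terf2ip, a telomere-binding protein gene, at -0.25 ± 0.26, and Mcph1, a gene of chromosome condensation and the DNA damage response, at -0.22 ± 0.15 (SD, n = 11 each). Fanca, a Fanconi anaemia gene, was at 0.05 ± 0.08 (SD, n = 11) and did not pass. Of the 3 probes of Wrn, the first averaged -0.51 and the other two -0.16 and -0.20.

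Tumour suppressor and adhesion genes had 4 of 15 members lower (26.7%, near the 28.4% of the chromosome), none higher and 11 that did not pass, with a median of -0.13. The cadherin genes were not at 1 level. The neighbours Cdh3 and Cdh1 both passed as lower: Cdh3 was at -0.34 ± 0.19 and Cdh1, the gene for E-cadherin, at -0.20 ± 0.11. Further away on either side, Cdh11 was at -0.16 ± 0.19 and Cdh13 at 0.16 ± 0.21 (SD, n = 11 each), and these did not pass. Cdh13 was higher than its chromosome by 0.27 (limma adjusted p = 1.52e-07), with 0.64 in B76 as its highest and -0.22 in A202 as its lowest value. Wwox, an oxidoreductase gene at a fragile site, was at -0.33 ± 0.19 (SD, n = 11) and passed in both fits, with -0.70 in A202 and 0.12 in B76. Cul4a, a ubiquitin ligase scaffold gene, was at -0.25 ± 0.22 (SD, n = 11). Msr1, in the raised stretch of B76, was 0.20 above its chromosome and passed there. With the running median of neighbouring probes, Wwox was at -0.14, and at -0.03 against its chromosome, and was called in neither fit. Cdh13 and Msr1 were then each 0.14 above their chromosome, short of the size needed.

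The families of related genes (defensins, carboxylesterases, metallothioneins and olfactory receptors) were the list furthest from the chromosome level. Of 38 members, 4 passed as higher than the reference (10.5%, beside 2.33% of all chromosome 8 genes) and 6 as lower (15.8%, beside 28.4%). Against their chromosome 10 passed as higher, or 26.3% beside 9.59% of all chromosome 8 genes, and 4 as lower, or 10.5% beside 10.4%. Their median against the chromosome was 0.13, where that of all chromosome 8 genes was -0.01. Defb8 (0.26 ± 0.16), Defb3 (0.22 ± 0.12) and Defb9 (0.21 ± 0.22), all beta-defensin genes, and the carboxylesterase gene Ces2a (0.26 ± 0.20) passed as higher (SD, n = 11 each), while Defb39 was lower at -0.38 ± 0.15 (SD, n = 11). Genes of such families share sequence, so a probe may also have measured a gene's neighbours, and each of these 5 genes rests on 1 probe.

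The metallothionein genes, which encode metal-binding proteins, divided within a single cluster. Mt1 at -0.32 ± 0.17, Mt2 at -0.38 ± 0.13 and Mt3 at -0.37 ± 0.15 passed as lower in both fits (SD, n = 11 each). With the running median of neighbouring probes, Mt1, Mt2 and Mt3 were still called against the reference and fell just short against their chromosome. Mt4, next to them, was at 0.17 ± 0.28 (SD, n = 11), did not pass against the reference and passed as higher than its chromosome by 0.28. It was the only gene of the cluster with all mixed tumours above 0, from 0.05 in A202 to 0.59 in A18, and all C57BL/6J tumours below 0, from -0.20 in B91 to -0.04 in B76.

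Neural, glial and mesenchymal development genes had 10 of 21 members lower (47.6%, beside 28.4%), none higher and 11 that did not pass, with a median of -0.18. Against their own chromosome 3 passed as lower (14.3%, beside 10.4% of all chromosome 8 genes). Hmox1, the gene for haem oxygenase, was at -0.43 ± 0.20, Hand2 at -0.37 ± 0.16, Irx5 at -0.35 ± 0.20 and Irx3 at -0.30 ± 0.13 (SD, n = 11 each), the last 3 being developmental transcription factors. Hmox1, Hand2 and Irx5 also passed against their chromosome, by -0.32, -0.26 and -0.24. With the running median of neighbouring probes they were at -0.15, -0.03 and -0.14 against the reference, and none was called in either fit. Each of these 4 genes rests on 1 probe.

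The genes at both ends of the range differed in how far their neighbours shared their level. Tcim, a small gene that acts in Wnt signalling, was higher in 11 of 11 tumours, from 0.19 in A202 to 1.13 in B76, with a mean of 0.65 ± 0.23 (SD, n = 11; limma adjusted p = 3.4e-07). Nip7, a ribosome biogenesis gene, had the highest mean, 0.93 ± 0.75 (SD, n = 11; limma adjusted p = 0.000484), but its values were uneven: 231Trig was at -0.32 and A202 at -0.48, while the other 9 tumours ran from 0.78 in A292 to 1.94 in B76. Next among the higher genes by the naming rule were Wdr83 (0.28 ± 0.17), Ces2a, Myom2 (0.26 ± 0.20, a muscle gene) and Defb8. With the running median of neighbouring probes, Nip7 was at -0.15 and Tcim at 0.03, while Wdr83 was at 0.21 and was still called.

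The lowest named gene was Tlr3, a receptor gene for double-stranded RNA. Its mean was -0.88 ± 0.24 (SD, n = 11; limma adjusted p = 2.04e-08), below 0 in all tumours, and 1 of its 2 probes carried the difference, at -1.75. Pgpep1 was at -0.64 ± 0.27, Nrn1l at -0.56 ± 0.21, Mri1 at -0.51 ± 0.31, Cbln1, a gene of synapse organisation, at -0.51 ± 0.20 and Thap1 at -0.50 ± 0.24 (SD, n = 11 each), each on 1 probe. With the running median of neighbouring probes, Mri1 was at -0.38 and Pgpep1 at -0.30 and both were still called, while Tlr3 was at -0.17, Cbln1 at -0.15, Nrn1l at -0.10 and Thap1 at -0.10. The lowest probe of all, without a gene name, averaged -1.88 over the 9 tumours in which it was measured, from -2.44 in 231Trig to -1.32 in B91.

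Such isolated probes were common and repeated between tumours. Of the 2139 probes, 206 (9.63%) lay at least 0.3 from the tumours' chromosome medians on average, and in 153 of these the SD over tumours was less than 50% of the distance. At least 0.5 was reached by 28 probes and at least 1 by 4. The share of such probes on the other autosomes was not counted, so these numbers do not set chromosome 8 apart. A probe that reads high or low on every array against 1 reference cannot be told apart from a difference carried by the reference. At the penalty used, steps of at least 0.2 were found in B76 alone. At a penalty of 20, B91 and B96 had segments of 46 and 44 probes at -0.34 and -0.28 that begin at 86759285. Both include the low Mri1 probe. At the same penalty A292 and A394 had segments of 157 and 158 probes, both at -0.24, that end at 37165260. A390 had a segment of 153 probes at -0.07, from 26150813 to 36888371, where its chromosome median was 0.02. These segments of A292, A394 and A390 hold Fgfr1, Nsd3, Nrg1 and Wrn. In A202 a segment of 60 probes from 69005384 to 72341437 lay at -0.61.

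A small set of isolated probes instead divided the tumours, and did so along the chromosome. They were sought after the values were seen, as probes at which all C57BL/6J tumours lay at least 0.5 above their chromosome median and at least 1 mixed tumour lay at -1 or lower, so this is a description with no test. There were 8 such probes on chromosome 8 (0.374%) and 34 on the other autosomes (0.0881%). Their values were sorted by the same limits into 3 levels relative to the tumour's chromosome median. The high values had a median of 0.87 and ran from 0.51 to 1.16, the middle values had a median of 0.04 and ran from -0.997 to 0.40, and the low values had a median of -2.21 and ran from -3.29 to -1.23.

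The same tumours shared a level over long distances. At the 4 probes from 19376328 to 44221068, which include those in Mfhas1 and Triml1, A18, A202, A292 and A394 were low. 231Trig and A390 were in the middle and A382 was high. Each of the 7 mixed tumours had the same level at all 4 probes. The C57BL/6J tumours were high at every probe by the rule that chose the probes. In Triml1 the low values were -2.66, -2.72, -2.49 and -2.34, the middle values were 0.03 in both tumours, and A382 stood at 1.00 within the C57BL/6J range of 0.82 to 1.16.

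At the 3 probes from 81234913 to 85488971, which include those in Slc10a7 and Rnf150, the grouping was another one. Each of the 7 mixed tumours again had the same level at all 3 probes. Now 231Trig, A202 and A394 were low, at -2.74, -3.29 and -2.59 in Slc10a7, and A18, A390, A292 and A382 were in the middle, at -0.53, -0.17, -0.05 and 0.05. The C57BL/6J tumours, high by the rule that chose the probes, ran from 0.78 to 0.94 in Slc10a7. Between these groups of probes, A18 and A292 went from low to middle, 231Trig from middle to low and A382 from high to middle, while A394, A202 and A390 kept their level at the outer sets.

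The probe in Zfp930, at 71733442, lay between them in its values too. A18 and A394 were still low there (-1.24 and -1.23), A202 was at -0.997 just short of the limit used, A292 was already in the middle at 0.20, 231Trig was at 0.23 and A382 was still high at 0.77. Both passages of A382 gave these values, with a largest difference of 0.18 over the 8 probes. The Mfhas1 probe was well above background on 9 of the 12 arrays and is the least certain of the set. At the penalty of 40 noise variances none of these changes of level coincided with a break, as the chromosome was unbroken in all 7 mixed tumours. The medians of the 6 neighbouring probes lay between -0.24 and 0.42 of the chromosome median in every tumour. The reference is labelled C57BL/6J, yet these probes were sought as ones at which the C57BL/6J tumours read above it. What lies behind the levels was not tested.

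**Figure D5:**
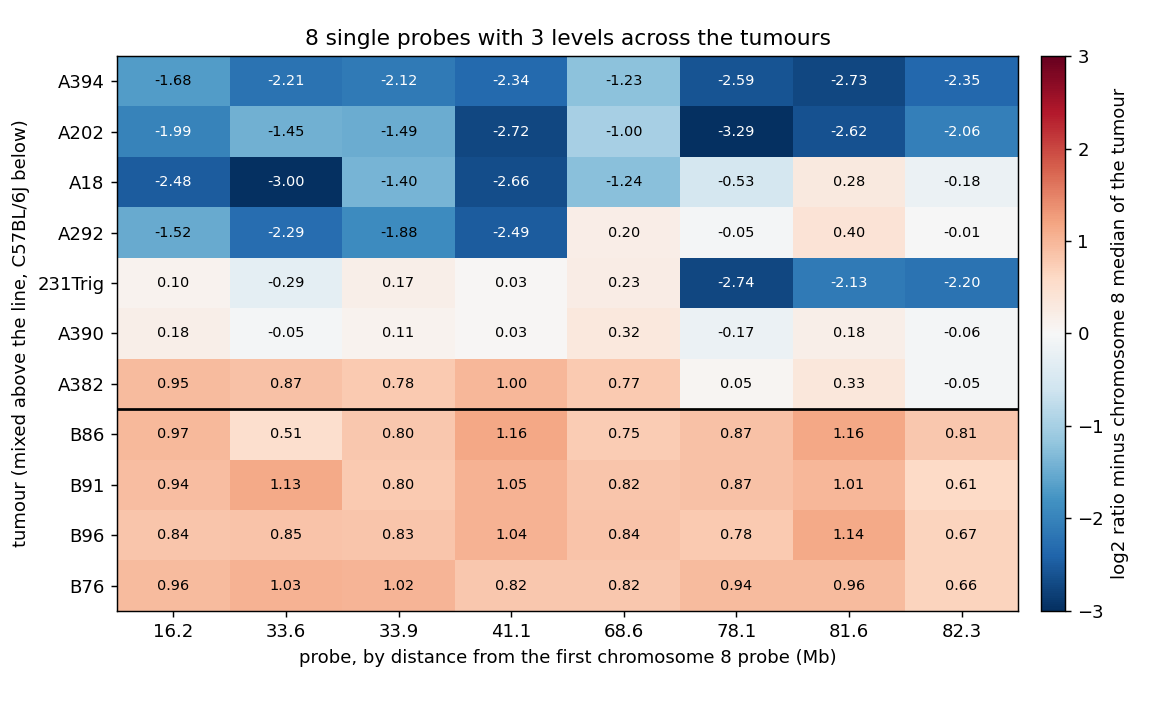
Log2 ratio minus the tumour's chromosome 8 median at 8 single probes (columns, by distance from the first chromosome 8 probe in Mb) in 7 mixed tumours (above the line) and 4 C57BL/6J tumours (below), red for high and blue for low. The C57BL/6J tumours are high at all 8 probes (0.51 to 1.16) because the probes were chosen so. The mixed tumours A18, A292, 231Trig and A382 change level between the probes at 41.1 and 78.1 Mb.

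Tumours of both strain backgrounds overlapped in their chromosome level, and the test of the difference did not pass. The mean chromosome 8 median was -0.02 ± 0.20 (SD, n = 4) in C57BL/6J and -0.16 ± 0.13 (SD, n = 7) in mixed tumours, a difference of 0.14, with p = 0.255 in an exact two-sided permutation test over 330 splits and an adjusted p of 0.537. The difference rested on B76: the other 3 C57BL/6J tumours averaged -0.12 ± 0.03 (SD, n = 3), and without B76 the difference was 0.04. Within slides the difference was 0.13 on slide 1 (1 C57BL/6J array against 3 mixed), -0.05 on slide 2 (1 against 3) and 0.24 on slide 3 (2 against 2, with B76).

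No gene on chromosome 8 passed the strain comparison with limma in either direction, where 0% of all autosomal genes passed as higher and 0.015% as lower in C57BL/6J. At an unadjusted p under 0.05 there were 95 of 1074, or 8.85%, beside 10.3% of all autosomal genes, and the smallest adjusted p was 0.194. It belonged to Ednra, an endothelin receptor gene, chosen after its values were seen: its mean was 0.25 in C57BL/6J and -0.26 in mixed tumours, and all C57BL/6J tumours lay above 0 (0.07 to 0.48) and all mixed tumours below (-0.60 to -0.02). Inpp4b, a lipid phosphatase gene of the signalling list, was at 0.14 and -0.39, with an adjusted p of 0.261. Both genes lie near the probes of Slc10a7 and Rnf150 described above.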

How the data were processed

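Per the labels' protocols, tumour and reference genomic DNA was labelled enzymatically and hybridised together. Per the submitters' processing notes, Agilent Feature Extraction 9.5 and genome build mm9 were used. The deposited files hold log10 ratios of tumour over reference, and per the file headers background had been subtracted, spatial and multiplicative trends corrected and the dyes normalised linearly. They also hold the intensity of each channel, as the authors deposited it, which was used for the reference channel and for the normexp and loess alternatives. The series table held the same log10 ratios.

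Ratios were converted to log2, control spots dropped, and spots marked non-uniform or as population outliers set to missing. Spots of a probe were averaged, and each array was centred on its autosomal median. Gene names came from the files, updated through RefSeq accessions (28944 of 29327 matched). No mm9 annotation was used, so exons and introns are not given. Segments used a penalty of 40 noise variances per break, at least 5 probes, with single values held within 3 noise SD of a running median over 5 probes. Gene tests used limma 3.58.1 (R 4.3.3), with Python 3.11.15, numpy 2.4.6 and pandas 2.3.3 for other steps. The segmentation, sign-flip and limma steps were tested on simulated data.

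The members, tests and gene lists were chosen with earlier results of these data known. Genes were named by rule: the 6 highest and 6 lowest passing genes against the reference and 5 and 5 against the chromosome (same sign in at least 9 tumours, at most 1 per Mb), up to 4 genes of each list by size, 12 fixed genes where measured, and genes beside breaks and in focal segments. Irs2 and Junb were not analysed here. Dlc1, Tusc3, Dusp4, Palld, Mt4, Ing2, Sall1, Defb3, Defb9 and Inpp4b are list members named beside these. Alternatives covered each tumour left out, normexp (offset 50), loess, centring, flagged and dim probes, GC content, slides, passages, strain, size minimum and segment settings.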

Additional observations from a re-analysis of the deposited data

Results flagged for a closer look

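In a group of 4 to 10 tumours, a tumour was singled out when its gap to the nearest other tumour, divided by the range of the group, exceeded Dixon's limit for that group size. Of 108 groups of values tested, 15 met this, 10 of them through B76 among the C57BL/6J tumours and 5 through A202 among the mixed tumours. Chance flags about 1 in 20 independent groups, but these groups share the high level of B76 and the low level of A202 along 1 chromosome, and Clcn3, Nek1 and Sh3rf1 were named because they lie in a raised stretch of B76, so the counts cannot be set against that rate.

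The chromosome 8 median of B76, 0.27, stood apart from the other C57BL/6J tumours, which ran from -0.15 to -0.10. The same tumour stood apart and above at Nsd3 (0.0460), Terf2ip (0.16), Cdh3 (0.13), Wwox (0.12), Insr (0.26) and Msr1 (0.42), and at Clcn3 (0.68), Nek1 (0.57) and Sh3rf1 (0.85) in its second raised stretch.

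A202 stood apart and below the other mixed tumours at Myom2 (-0.15), Mri1 (-1.26), Nrg1 (-0.56), Cdh11 (-0.62) and Spock3 (-0.50). At Nrg1 the other mixed tumours ran from -0.31 to -0.20, and at Mri1 from -0.68 to -0.28. Its chromosome 8 median was not singled out by this rule among the 7 mixed tumours.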

How the results depend on the processing

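The distal minus proximal difference and the strain difference kept their direction and side of the threshold in all alternatives run (22 and 21). The 2 other centrings cannot move the distal minus proximal difference. The mean of the chromosome medians ran from -0.149 to -0.0801 with each tumour left out (exact sign-flip adjusted p 0.0106 to 0.186), passed without B76 (-0.149, the lowest) and passed without B76 and A202 together (-0.119), a setting chosen after seeing the data. Without slide 1 it was -0.0624 (exact sign-flip adjusted p = 0.445). Lower chromosome 8 genes numbered 253 to 416 and higher ones 17 to 39 with 1 tumour left out, the extremes coming without A202 (253 lower, 39 higher) and without B76 (416 lower, 17 higher). Higher genes numbered 60 without slide 1, 43 in C57BL/6J tumours alone (82 lower), 14 in mixed tumours alone and 2 with the running median of 5 probes. A size minimum of 0.1 gave 57 higher and 506 lower genes, and 229 and 275 against the chromosome, where the running median left 24 and 23. With normexp, 1 gene passed as higher in C57BL/6J.

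A penalty of 20 found 28 breaks, 6 of them with a step of at least 0.2 in place of 4, and 2 focal segments. A call threshold of 0.3 gave 0 gained tumours and 1 lost, a threshold of 0.1 gave 9 lost, and passage 9 of A382 alone or centring on the mode gave 1 lost. The running median turned the sign of Ces2a (-0.0271) and Nip7 (-0.151) against the reference, and of Nip7 (-0.0400), Defb39 (0.0227), Hand2 (0.0858), Nrn1l (0.00730) and Thap1 (0.00776) against the chromosome. It replaces a probe by its neighbourhood, so it removes values that rest on 1 probe. Over all named genes and alternatives, 2431 values kept their call, 87 lost it and 23 gained it. No paired analysis was possible because the labels give no replicate numbers.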
